A study of Mus musculus with 8 samples.

Results

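Fetal liver and adult bone marrow of mice lacking Col18a1 were compared on the knockout arrays of the series, which are 4 of its 8 arrays. The members are all autosomal genes with a probe set on the array: 17405 of 18194 genes, of which 12677 reached a log2 intensity of 5 on at least 2 of the 8 arrays and were tested. The 4728 others were not tested. Where several probe sets name a gene and no other, the brightest of them on average over the 8 arrays stands for it. All animals were C57B6/J mice. Knockout (Col18a1-/-) bone marrow was flushed from the femurs and tibias of males aged 3 months, and knockout fetal liver came from embryos of day 14.5 whose sex was undetermined, per the labels. Both groups consisted of untreated cell suspensions, and RNA of 2 littermates was pooled for each array, with 2 arrays per group. Wild-type (Col18a1+/+) arrays of the same tissues, 2 per tissue, served to ask whether the tissue difference was the same with and without Col18a1. The deposited description calls the wild-type animals littermates, while the growth protocol names separate lines for each genotype, so relatedness across genotypes is not settled here. Age, organ and developmental stage change together between the groups and cannot be told apart. Nothing in the labels says that the pools of a group came from separate litters, so p-values measure only the spread between these arrays.

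The liver of the mid-gestation embryo is the main site of blood formation, where erythroblasts crowd around hepatoblasts that already secrete plasma proteins. Hematopoiesis moves to the bone marrow around birth, and adult marrow adds large pools of maturing neutrophils and B cell precursors beside bone-forming stroma and fat. Col18a1 encodes the alpha chain of collagen XVIII, a basement membrane heparan sulfate proteoglycan whose C-terminal fragment is endostatin.

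Promoters of a few members with large tissue differences, picked by hand, are printed as examples. All of them hold a motif match, and they are not typical. HNF1 was found in 7 of 144 windows of genes called at least 4 higher, and PU.1 in 6 of 82 windows of genes called at least 4 lower. The stretches below are the 250 bases before the annotated start, 5′ to 3′, from RefSeq (GRCm38.p6), with motif matches on either strand in capitals. The first 3 genes were far higher in knockout fetal liver and the last 2 far lower, with values given further on.
Afp, chr5:90490464-90490713, plus strand: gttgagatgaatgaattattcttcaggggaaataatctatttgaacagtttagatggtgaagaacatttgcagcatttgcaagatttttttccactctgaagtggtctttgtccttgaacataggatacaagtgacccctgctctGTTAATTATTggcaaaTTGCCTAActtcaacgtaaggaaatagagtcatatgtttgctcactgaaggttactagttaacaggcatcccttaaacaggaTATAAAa
Alb, chr5:90460620-90460869, plus strand: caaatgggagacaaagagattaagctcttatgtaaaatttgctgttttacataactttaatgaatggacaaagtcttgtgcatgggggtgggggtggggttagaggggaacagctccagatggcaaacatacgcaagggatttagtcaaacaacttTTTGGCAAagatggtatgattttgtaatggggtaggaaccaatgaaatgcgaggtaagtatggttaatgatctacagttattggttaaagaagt
Igfbp1, chr11:7197537-7197786, plus strand: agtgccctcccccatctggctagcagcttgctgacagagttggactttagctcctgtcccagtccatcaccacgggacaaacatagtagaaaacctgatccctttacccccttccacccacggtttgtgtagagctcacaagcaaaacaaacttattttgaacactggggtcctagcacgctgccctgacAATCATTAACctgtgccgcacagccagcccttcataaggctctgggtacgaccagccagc
Mmp8, chr9:7558179-7558428, plus strand: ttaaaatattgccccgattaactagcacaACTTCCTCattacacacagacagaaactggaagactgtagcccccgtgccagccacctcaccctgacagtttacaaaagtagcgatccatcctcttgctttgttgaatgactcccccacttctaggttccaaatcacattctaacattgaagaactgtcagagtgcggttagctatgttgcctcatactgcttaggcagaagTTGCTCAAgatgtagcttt
Ltf, chr9:111019042-111019291, plus strand: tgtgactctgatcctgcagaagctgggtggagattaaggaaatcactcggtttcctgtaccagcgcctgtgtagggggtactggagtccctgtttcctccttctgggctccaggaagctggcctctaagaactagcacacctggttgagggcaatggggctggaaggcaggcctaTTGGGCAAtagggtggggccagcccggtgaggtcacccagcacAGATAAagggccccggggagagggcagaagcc
In the Afp promoter, the first capitals (bases 146 to 155, counted from 1 at the 5′ end) match the motif of HNF1, a hepatocyte homeodomain factor, the second (162 to 169) that of C/EBP, a factor family of liver and myeloid cells, and the last (244 to 249) the TATA box. The capitals mark C/EBP in Alb and HNF1 in Igfbp1, both matched on the opposite strand. In Mmp8 they mark PU.1, a myeloid and B cell factor, on the opposite strand (30 to 37) and then C/EBP (232 to 239). In Ltf they mark C/EBP on the opposite strand and then GATA, the motif of a blood cell factor family. None of these matches is a measured binding site.

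Motifs were counted in windows of 300 bases (250 before to 50 after the start) around 13028 starts of the 10200 tested genes found in RefSeq's promoter table, on both strands. HNF1 (GTTAAT, any base, then ATT) was present in 0.246% of all windows, in 4.86% (7 of 144) of those of genes called at least 4 higher on the log2 scale in knockout fetal liver and in 0 of 82 of those called at least 4 lower. PU.1 (GAGGAAGT) was present in 3.03% of all windows, in 0 of 144 of the higher set and in 7.32% (6 of 82) of the lower set. C/EBP (TTGCNNAA) was about as frequent at both ends, at 19.4% in the higher and 20.7% in the lower set against 8.58% in all windows. The TATA box (TATAAA) was found in 21.5% of the higher and 29.3% of the lower set against 7.72% of all windows. For the GATA motif (AGATAA) the shares were 13.9% and 8.54% against 6.75%. The median GC content was 60.3% over all windows, 52.3% in the higher and 50.5% in the lower set. Base composition therefore moved with the sets, and its part in the motif counts was not tested. The motifs were chosen after the gene differences had been seen, and several windows can belong to 1 gene.

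Most of the measured transcriptome differed between the tissues. On the 12677 tested genes, limma called 8090 (63.8%) different between knockout fetal liver and knockout bone marrow after Benjamini-Hochberg adjustment over all 13136 tested genes at 0.05. Of these, 4647 (36.7%) were higher and 3443 (27.2%) lower in fetal liver, and 4587 did not pass. The groups did not overlap in 10448 genes (82.4%), with fetal liver wholly above marrow in 6070 (47.9%) and wholly below it in 4378 (34.5%). Because the background is this high, a member's call alone says little, and sizes are given throughout as the log2 difference, fetal liver minus bone marrow. Counts of called list members below are to be read against these shares. The median difference of all tested genes was 0.11.

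Among called genes, 1614 were at least 1 higher (2-fold) in fetal liver and 1414 at least 1 lower. At 4 or more (16-fold) the counts were 159 and 101, and at 6 or more (64-fold) 49 and 18. The far end was one-sided: 15 genes were higher by 8 or more (256-fold) and 2 were lower by as much. Fetal liver alone brought 841 genes to a log2 intensity of 5 on at least 1 array, bone marrow alone 361, and 11417 reached it in both. For a gene that passed the filter through the arrays of 1 tissue alone, selection and direction are not independent. Examples are Afp, Apob, Fga, Cth and Colec11 (fetal liver) and Chil3 and Ebf1 (marrow). Counts in 1 direction for the liver and marrow lists below are therefore a description of the tested members. In bulk tissue, a lower value from fewer cells of a type and one from less RNA per cell cannot be told apart.

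The array medians were 40.8 to 42.6 intensity units. The RMA processing described below makes arrays alike, so their likeness says nothing about array quality. Across genes, which are not independent replicates, replicate pools had an r of 0.993 to 0.997, arrays of 1 tissue and different genotype 0.991 to 0.997 and arrays of different tissues 0.909 to 0.923. The 2 knockout fetal liver pools differed from each other more than the marrow pools did, by at least 0.5 in 674 tested genes against 202. Both knockout groups were alike in sex-linked expression, with the Y-linked gene Eif2s3y at 10.03 and 9.38 in marrow and 9.38 and 9.42 in fetal liver and Xist at 5.03 or below on all 4 arrays. The wild-type fetal liver pools differed, with Eif2s3y at 3.29 and 3.00 and Xist at 11.04 and 11.22, which touches every comparison with wild-type fetal liver below. With 2 arrays per group, precision is limited throughout.

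Col18a1 itself was measured by a pair of probe sets, and it is not known here whether they lie in the deleted part, so they do not check the genotype fully. On the brighter one knockout marrow read 5.63 and 5.99 and knockout fetal liver 8.17 and 8.06, with wild-type marrow at 7.84 and 7.85 and wild-type fetal liver at 9.06 and 9.18. Knockout arrays read lower than wild-type arrays in both tissues, and fetal liver read higher than marrow in both genotypes. The knockout tissue difference was 2.31 ± 0.13 (SE, n = 2 and 2; limma adjusted p = 6.52e-07) and the wild-type one 1.27. The difference between these, 1.03 ± 0.18, did not pass (limma adjusted p = 0.0929), and the second probe set gave 1.36 in knockout and 1.64 in wild-type.

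Genes of the hepatoblast, the embryonic liver cell that gives rise to hepatocytes, formed the upper end of the comparison. Of 18 tested hepatoblast markers 17 were higher in knockout fetal liver and none lower, with a median difference of 6.80 against 0.11 over all tested genes. Alpha-fetoprotein (Afp), the main plasma protein of the embryo, read 4.95 and 4.68 in knockout marrow and 14.66 and 14.58 in knockout fetal liver, an 892-fold difference (9.80 ± 0.12, limma adjusted p = 4.16e-10). Albumin (Alb) read 3.85 and 4.95 against 14.35 and 14.48 (10.01 ± 0.31, limma adjusted p = 2.22e-08). Both genes read near the floor of the array in marrow and near its top in fetal liver, and the 2 marrow pools were farther apart for Alb than for Afp.

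The protease inhibitor Serpina1b had the largest difference of all called genes, 10.37 ± 0.11, from 3.17 and 3.13 in marrow to 13.51 and 13.54 in fetal liver (limma adjusted p = 2.12e-10). Serpina6, the corticosteroid-binding globulin, differed by 9.48 and Rbp4, the retinol carrier of plasma, by 9.41. Igfbp1, a secreted binder of insulin-like growth factors, read 3.47 and 3.19 against 11.51 and 11.07 (7.96 ± 0.16, limma adjusted p = 2.81e-09). The exception among the hepatoblast markers was Epcam, an epithelial adhesion protein, at 5.14 and 5.30 against 4.97 and 5.09 (-0.19, limma adjusted p = 0.178). The markers that define the tissue labels were thus present on the arrays that should carry them.

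**Figure D1:**
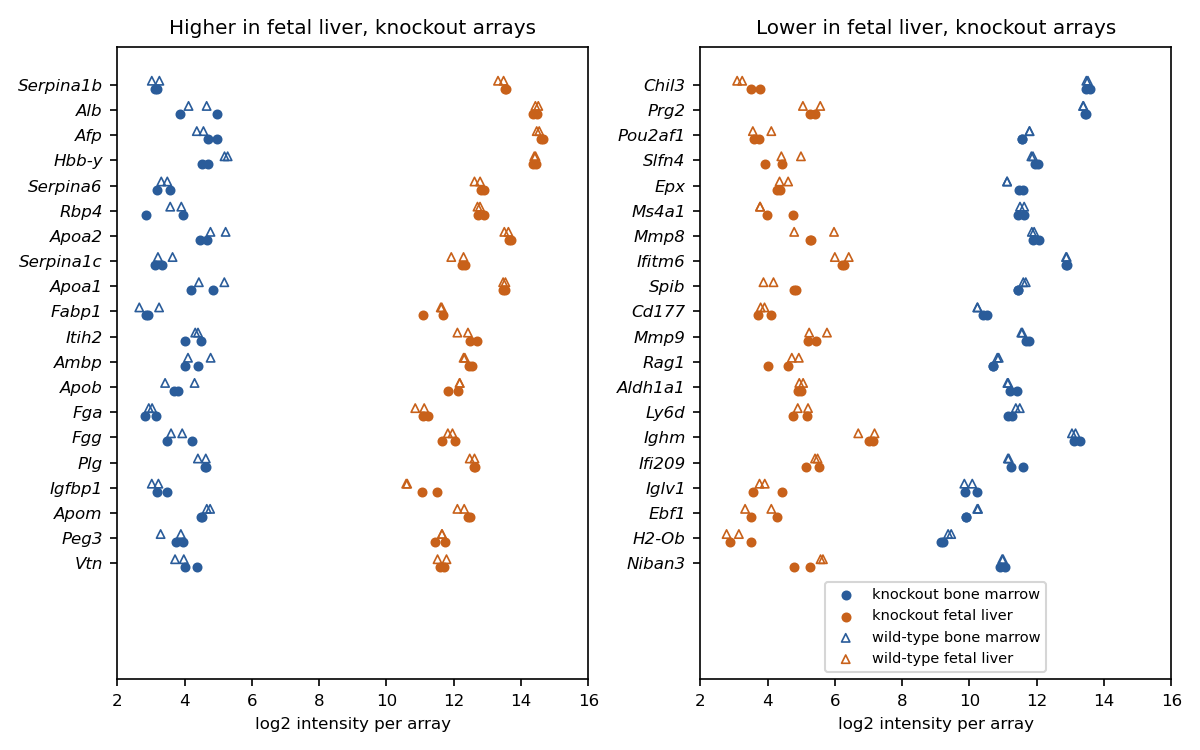
Log2 intensity on each array for the 20 genes with the largest positive (left) and the 20 with the largest negative (right) called difference between knockout fetal liver and knockout bone marrow; filled circles are knockout arrays, open triangles wild-type arrays, blue is bone marrow and orange fetal liver, with no mean or error drawn. Genes with clone-type symbols, such as Rik names, were left out of the ranking. In every row the 2 knockout fetal liver arrays lie far from the 2 knockout marrow arrays, from Serpina1b (10.37) to Chil3 (-9.87), and the wild-type arrays of a tissue lie close to the knockout ones.

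The proteins that the liver secretes into plasma followed. Apolipoproteins are the protein parts of lipoprotein particles. Of 13 on the array 11 passed the filter and were tested, and these were all higher in knockout fetal liver (median 5.57). Members such as Apob and Apom passed through the fetal liver arrays alone, so their selection and direction are not independent. Apoa2 read 4.47 and 4.65 in marrow and 13.63 and 13.70 in fetal liver (9.10 ± 0.15, limma adjusted p = 1.5e-09), and Apoa1 differed by 8.98. Apoa5 differed least, by 0.48, and Apoe, which macrophages also make, by 2.47. Of 18 coagulation genes 17 were higher (median 5.64), among them the fibrinogen alpha chain Fga at 2.82 and 3.14 against 11.10 and 11.22 (8.18 ± 0.14, limma adjusted p = 1.69e-09) and prothrombin (F2), which differed by 7.27. Coagulation factor V (F5), which megakaryocytes also carry, read 8.76 and 8.73 in marrow and 8.63 and 9.19 in fetal liver and did not pass (0.17, limma adjusted p = 0.419).

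Intracellular liver functions differed by less. All 15 tested enzymes of the urea cycle and amino acid catabolism were higher in knockout fetal liver, with a median of 2.42. Cystathionine gamma-lyase (Cth), which makes cysteine, read 3.52 and 3.98 in marrow and 9.31 and 9.91 in fetal liver (5.85 ± 0.23, limma adjusted p = 8.16e-08). Arginase 1 (Arg1), the last enzyme of the urea cycle, read 3.74 and 3.82 against 6.52 and 7.56 (3.26 ± 0.35), and its fetal liver pools lay more than 1 log2 unit apart. Of 17 hepatic transcription factors 16 were higher (median 2.45), led by Foxa3, a forkhead factor of endoderm, at 3.37 and 3.36 against 8.81 and 8.60 (5.34 ± 0.15, limma adjusted p = 1.16e-08). Prox1, which hepatoblasts need to migrate, differed by 4.73 and Hnf4a, a nuclear receptor of hepatocytes, by 3.35. Hhex, which acts in both liver budding and blood cells, was the only one lower, at 9.53 and 9.55 in marrow and 8.54 and 8.99 in fetal liver (-0.78 ± 0.14, limma adjusted p = 0.00113).

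Globin genes split by developmental stage, although few adult ones were tested. The 3 tested embryonic globins were all higher in knockout fetal liver. Hbb-y, the epsilon-type beta globin of primitive red cells, read 4.69 and 4.53 in marrow and 14.43 and 14.36 in fetal liver (9.79 ± 0.10, limma adjusted p = 2.12e-10). Hbb-bh1 differed by 6.18 and Hba-x, the zeta globin, by 4.84. Of 6 listed adult globins 2 were tested, and these did not follow. Hbb-b2 read 11.42 and 11.39 against 11.22 and 11.61 (0.01, limma adjusted p = 0.946), and Hba-a2 was lower by a small amount (-0.83, limma adjusted p = 0.000625). With so few genes the list median, -0.41, ran from -0.83 to 0.01 over the settings.

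The general erythroid machinery was near balance. Among 11 heme synthesis genes 2 were higher and 2 lower (median -0.02), with Cpox, an oxidase of the pathway, at 1.35 and Alas1, the non-erythroid first enzyme, at -1.05. Among 16 red cell membrane genes 6 were higher and 3 lower (median 0.02), but 1 member stood far out. The glucose transporter Slc2a1, known to be abundant in fetal red cells of rodents, read 8.08 and 7.94 in marrow and 13.08 and 13.17 in fetal liver (5.11 ± 0.10, limma adjusted p = 2.81e-09), and its other probe sets gave 5.21 and 5.08. The water channel Aqp1 went the other way, at 12.68 and 12.80 against 10.39 and 10.47 (-2.31 ± 0.09, limma adjusted p = 9.5e-08). Among 16 erythroid regulators 4 were higher and 6 lower (median 0.07), with Myb, a progenitor factor, at -1.77 and the LIM-domain adaptor Ldb1 at 1.04.

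**Figure D2:**
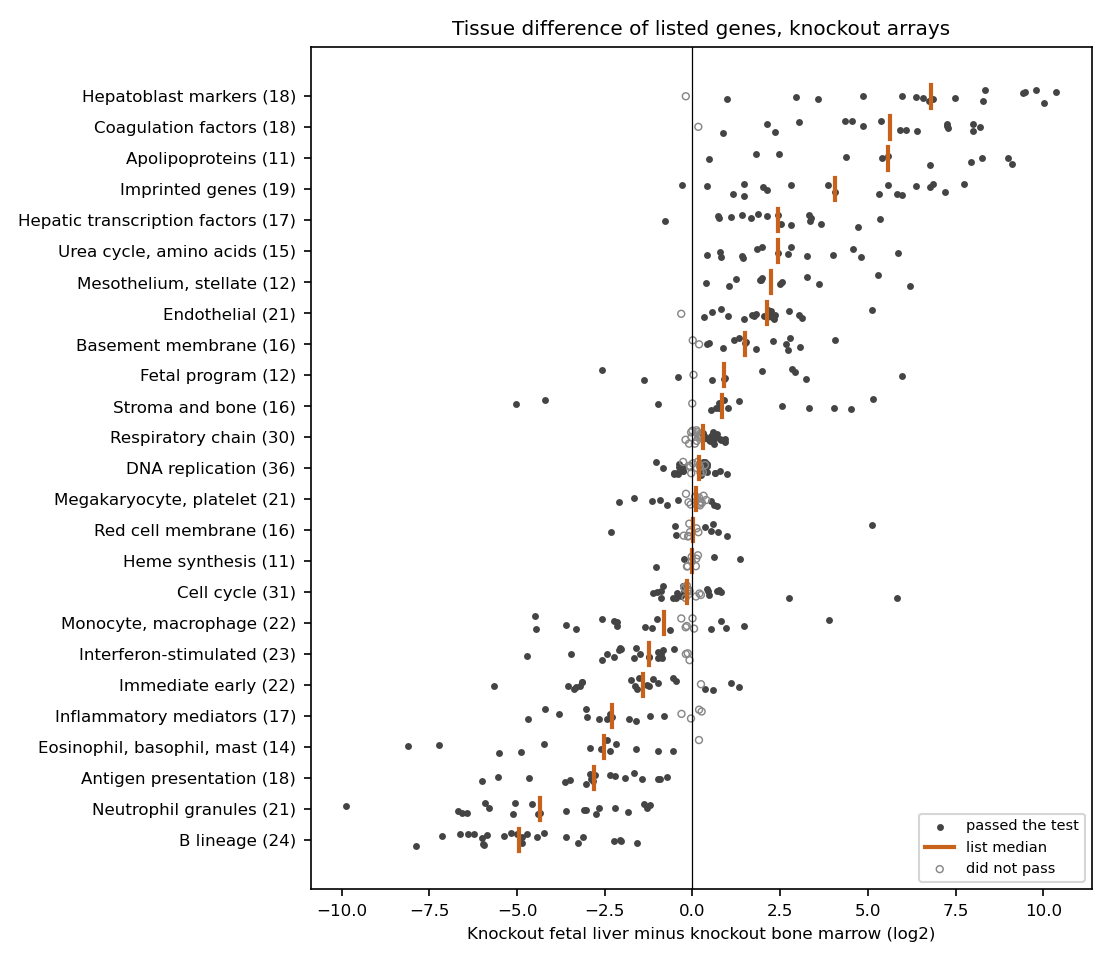
Log2 difference, knockout fetal liver minus knockout bone marrow, for each tested member of 25 gene lists; filled points passed limma's test, open points did not, the orange bar is the list median and the number in brackets counts tested members. Medians run from 6.80 for hepatoblast markers to -4.94 for B lineage genes, with erythroid and cell cycle lists close to 0.

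Imprinted genes, which are expressed from 1 parental allele and many of which promote fetal growth, were high in knockout fetal liver. Of 19 tested members 18 were higher, with a median of 4.06. Igf2, a fetal growth factor, read 5.58 and 6.09 in marrow and 12.60 and 12.59 in fetal liver (6.76 ± 0.15, limma adjusted p = 4.77e-09). Peg3, a zinc finger protein, differed by 7.75 and the noncoding RNA Rian by 7.20. Dlk1, Meg3 and Rian lie next to each other among tested genes of chromosome 12, and all were higher, by 4.06 to 7.20. Gnas, which encodes a G protein subunit and is expressed from both alleles in many tissues, was lower by a small amount (-0.29, limma adjusted p = 0.0299).

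Genes of the fetal hematopoietic program were mostly but not uniformly higher, with 8 of 12 up, 3 down and a median of 0.91. That median moved with the probe sets, to 1.55 with the mean of all probe sets and 2.57 with the most variable one, and to 1.43 with a filter at 6. Hmga2, a chromatin protein of fetal stem cells, read 5.49 and 5.58 in marrow and 8.47 and 8.41 in fetal liver (2.91 ± 0.12, limma adjusted p = 1.24e-07). The RNA-binding protein Igf2bp3 differed by 2.83 and the ubiquitin ligase Trim71 by 3.24. Sox4, a factor of lymphoid progenitors, was lower, at 12.00 and 11.81 against 9.29 and 9.35 (-2.59 ± 0.10, limma adjusted p = 6.14e-08). Lin28a, a blocker of let-7 maturation, was also lower on its brighter probe set (-1.37), while its other probe set gave -0.14, so the probe sets do not speak alike. The same holds for Bcl11a, a repressor of embryonic globin, at -0.42 on the probe set used and 0.10 as the mean of all its probe sets.

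Granulocyte genes formed the lower end. All 21 tested neutrophil granule genes were lower in knockout fetal liver, with a median of -4.36. Chil3, a chitinase-like protein of myeloid cells, had the largest fall of all called genes, from 13.59 and 13.45 in marrow to 3.52 and 3.78 in fetal liver, a 936-fold difference (-9.87 ± 0.11, limma adjusted p = 4.01e-10). Mmp8, the neutrophil collagenase, read 12.06 and 11.88 against 5.27 and 5.28 (-6.70 ± 0.30, limma adjusted p = 2.04e-07). Lactoferrin (Ltf), of the secondary granules, differed by -5.79 and Ngp by -5.13. Mpo and Elane, proteins of the primary granules that are made earlier in maturation, were lower by less, at -1.38 and -1.85. Mpo read 12.58 and 12.54 in marrow and still 11.01 and 11.35 in fetal liver.

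Eosinophil, basophil and mast cell genes were lower in 13 of 14 members (median -2.51). Prg2, the major basic protein of eosinophils, read 13.48 and 13.42 in marrow and 5.40 and 5.27 in fetal liver (-8.12 ± 0.15, limma adjusted p = 2.77e-09), and eosinophil peroxidase (Epx) differed by -7.22. The member that did not pass was Kit, the stem cell factor receptor shared with progenitors.

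Lymphoid genes were low in knockout fetal liver. All 24 tested B lineage genes were lower, with a median of -4.94, the lowest of the 38 lists. Ms4a1, which encodes CD20, read 11.61 and 11.44 in marrow and 3.99 and 4.75 in fetal liver (-7.15 ± 0.21, limma adjusted p = 1.58e-08). The B cell coactivator Pou2af1 differed by -7.89, the recombinase Rag1 by -6.40 and the early B cell factor Ebf1 by -6.00. Of 15 T and NK cell genes 9 were lower and 1 higher (median -1.16). The median was -0.73 with no filter, -2.80 with a filter at 6 and -1.94 with the most variable probe set. The higher one was Zap70, a T cell receptor kinase, whose difference of 0.42 turned to -0.012 as the mean of its probe sets. All 18 antigen presentation genes were lower (median -2.81), including the class II gene H2-Aa at 11.16 and 10.90 against 5.78 and 5.19 (-5.54 ± 0.20, limma adjusted p = 5.11e-08) and the class I light chain B2m at -2.22.

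Monocyte and macrophage genes moved both ways, with 12 of 22 lower and 5 higher (median -0.82, or -0.38 with the mean of all probe sets). Lysozyme 2 (Lyz2) read 14.40 and 14.34 in marrow and 9.68 and 10.13 in fetal liver (-4.47 ± 0.14, limma adjusted p = 2.39e-08). The scavenger receptor Marco read 5.23 and 5.32 in marrow and 9.39 and 8.93 in fetal liver (3.88 ± 0.15, limma adjusted p = 6.96e-08). The other higher members were Cd5l, Clec4f, Timd4 and Siglec1, which are known from resident macrophages, at 1.47, 0.96, 0.83 and 0.54. Scavenger receptor Cd163, also a macrophage gene, was lower by 4.49, so resident macrophage genes did not share a direction. Of 12 myeloid transcription factors 8 were lower and 3 higher (median -1.71), with Irf8, a monocyte factor, at -3.26 and Spi1, which encodes PU.1, at -1.61.

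Immediate early, inflammatory and interferon-stimulated genes were mostly lower in knockout fetal liver. Of 22 immediate early genes 17 were lower and 4 higher (median -1.42). Fos read 11.86 and 11.58 in marrow and 6.42 and 5.73 in fetal liver (-5.65 ± 0.20, limma adjusted p = 5.45e-08), Jun differed by -3.14, and Egr1 was higher by 1.09. Of 17 inflammatory mediators 13 were lower and none higher (median -2.29), and of 23 interferon-stimulated genes 20 were lower and none higher (median -1.23), with the antiviral enzyme Rsad2 at 13.88 and 13.88 against 9.25 and 9.10. Heat shock genes were mostly higher, with 12 of 18 up and 2 down (median 0.51). Hspa1b and Hspa1a, the stress-induced HSP70 genes, were lower by 3.92 and 3.27, while the mitochondrial chaperonins Hspe1 and Hspd1 were higher by 1.31 and 1.25.

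Structural cells of the fetal liver were visible. Of 21 endothelial genes 20 were higher in knockout fetal liver and none lower (median 2.14), led by Lyve1, the hyaluronan receptor of sinusoids and lymphatics, at 4.69 and 4.54 against 9.76 and 9.69 (5.11 ± 0.10, limma adjusted p = 2.81e-09). Without the second knockout marrow pool 18 of them passed as higher. Without the first knockout fetal liver pool 18 passed as higher and Pecam1, an adhesion protein also found on blood cells, as lower (-0.47, limma adjusted p = 0.0232). Of 16 basement membrane genes, the family in which collagen XVIII resides, 14 were higher and none lower (median 1.51), with nidogen 1 (Nid1) at 5.68 and 5.87 against 9.83 and 9.85 (4.06 ± 0.12, limma adjusted p = 1.87e-08). All 12 mesothelial and stellate cell genes were higher (median 2.24, or 1.35 with the mean of all probe sets), with the collectin Colec11 at 6.19.

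Stroma differed in kind. Of 16 stroma and bone genes 12 were higher and 3 lower (median 0.83). The fibrillar collagen Col3a1 read 7.22 and 6.89 in marrow and 11.94 and 12.43 in fetal liver (5.13 ± 0.20, limma adjusted p = 9.21e-08). Bone sialoprotein (Ibsp) was lower, at 7.97 and 7.84 against 2.83 and 2.95 (-5.02 ± 0.16, limma adjusted p = 2.43e-08), as was the collagenase Mmp13 (-4.20). The fat cell hormone adiponectin (Adipoq) read 8.87 and 8.97 in marrow and 2.83 and 3.46 in fetal liver (-5.77 ± 0.23, limma adjusted p = 1.07e-07). It was the extreme of 5 adipocyte genes, of which 2 were lower, 1 was higher and 2 did not pass. Their median was -0.16, or -1.41 with the most variable probe set. The higher one was Lpl, a lipase of fat and other tissues, at 1.12, and the fatty acid binding protein Fabp4 gave 0.25. Of 14 listed gut and pancreas genes 4 passed the filter and were tested, and 3 of these were higher. Among them was the intestinal fatty acid binding protein Fabp2 at 3.95 and 3.53 against 7.88 and 8.47 (4.44 ± 0.20). Fabp2 passed the filter through the fetal liver arrays alone, so its selection and its direction are not independent. The list median was 0.96, and 0.25 with no filter. The mean log2 level of the 4 tested genes ran from 4.93 to 5.08 in knockout marrow and from 6.50 to 6.78 in knockout fetal liver. These means include Fabp2, so selection and direction are not independent in them either. The part of neighbouring gut tissue in these values was not tested.

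Factors that hold stem cells in their niche were divided, with 7 of 14 higher and 6 lower (median 0.12). Stem cell factor (Kitl) read 8.27 and 8.18 in marrow and 9.84 and 10.18 in fetal liver (1.79 ± 0.18, limma adjusted p = 3.2e-05). The chemokine Cxcl12, the leptin receptor Lepr of marrow stroma and Angpt1, a vessel-stabilising ligand, were lower by 0.80, 1.59 and 1.30. Among 23 stem and progenitor genes 11 were higher and 7 lower (median 0.20, or 0.60 with the most variable probe set). The lymphoid surface protein Cd48 read 10.65 and 10.59 against 6.34 and 6.43 (-4.24 ± 0.14, limma adjusted p = 3.12e-08). Mecom, a stem cell transcription factor, was higher by 1.88 and the angiopoietin receptor Tek by 2.36.

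Housekeeping programs differed little in the middle but had strong members. Of 31 cell cycle genes 8 were higher and 12 lower (median -0.16), and of 36 DNA replication genes 14 were higher and 11 lower (median 0.18). Without the first knockout marrow pool 14 of the DNA replication genes were called in either direction instead of 25. The imprinted cyclin-dependent kinase inhibitor Cdkn1c read 6.58 and 6.54 in marrow and 12.33 and 12.44 in fetal liver (5.83 ± 0.11, limma adjusted p = 2.69e-09), and cyclin D1 (Ccnd1) differed by 2.75. Of 30 respiratory chain genes 17 were higher and none lower, with a median of 0.31. The shares called were 64.5% for cell cycle, 69.4% for DNA replication and 56.7% for respiratory chain genes, near the 63.8% of all tested genes. Of 18 glycolytic genes 11 were higher and 3 lower (median 0.55, or 0.36 with no filter). The liver and red cell pyruvate kinase Pklr was higher by 2.84, and hexokinase 3 (Hk3), a myeloid enzyme, was lower by 2.82.

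Some genes with large differences lay beside each other. Runs of at least 3 neighbouring tested genes that all differed by 2 or more in 1 direction numbered 12 higher and 14 lower, where 4.65% and 4.46% of tested genes met that size. The runs held 41 of the 590 higher genes (6.95%) and 49 of the 566 lower ones (8.66%). The longest held 5 genes. On chromosome 19 Ms4a1, Ms4a7, Ms4a4c, Ms4a4b and Ms4a6c, of the CD20 family, were lower by 2.23 to 7.15. On chromosome 5 Ugt2b34, Ugt2b35, Ugt2b36, Ugt2b5 and Sult1d1, enzymes of conjugation, were higher by 3.24 to 6.78. Shorter runs held Alb, Afp and Afm (higher by 4.14 to 10.01), the fibrinogen genes Fgg, Fga and Fgb (higher by 7.24 to 8.18) and S100a4, S100a6, S100a8 and S100a9 (lower by 2.74 to 5.83). Related genes can share probe sequence, so neighbours in a family are not independent measurements. Over whole chromosomes the share of higher genes ran from 28.2% on chromosome 13 to 41.0% on chromosome 15, and chromosome 13 was the autosome with more lower (170) than higher (136) genes among 482.

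The tissue difference without Col18a1 was then set beside the one with it. In wild-type arrays 8365 genes (66%) were called, 4964 (39.2%) higher and 3401 (26.8%) lower. Of all tested genes 4035 were higher in both genotypes and 2960 lower in both. The remaining calls fell in 1 genotype, except for 12 genes higher in knockout and lower in wild-type and 8 the other way. None of these 20 passed limma's test of the difference between genotypes (adjusted p = 0.0711 to 0.179). A call in 1 genotype alone is not a difference between them, so the interaction, the knockout tissue difference minus the wild-type one, was tested gene by gene.

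**Figure D3:**
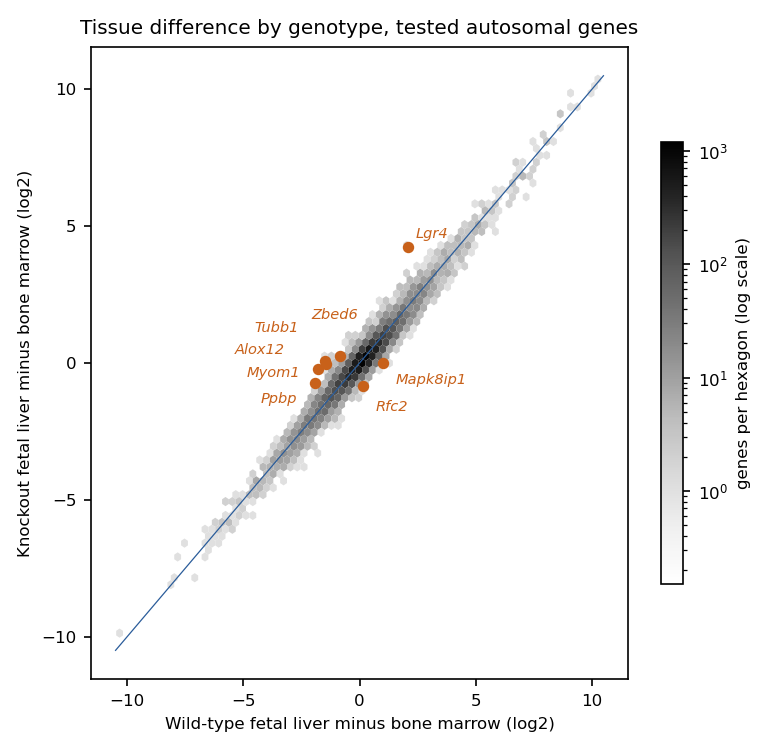
Log2 difference between fetal liver and bone marrow in wild-type arrays (horizontal axis) and in knockout arrays (vertical axis) for 12677 tested autosomal genes, as counts per hexagon on a log grey scale, with the line of equal difference; orange points are the 8 genes called for the interaction. Most genes follow the line over the whole range, and Lgr4 (2.07 in wild-type, 4.26 in knockout) stands farthest from it among the 8.

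The interaction was called for 8 of 12677 autosomal genes (0.0631%), 6 (0.0473%) positive and 2 (0.0158%) negative, while 1971 (15.5%) had an unadjusted p under 0.05. When p-values were adjusted over the autosomal genes alone, Lgr4 passed (limma adjusted p = 0.00114) and the other 7 did not (0.0694). Counts of 1 to 69 were obtained when 1 array was left out, with 1 in every case except 16 without the second wild-type marrow pool and 69 without the second knockout fetal liver pool.

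Lgr4, an R-spondin receptor that strengthens Wnt signalling, read 5.53 and 5.58 in knockout marrow and 9.76 and 9.86 in knockout fetal liver. In wild-type arrays it read 7.72 and 7.69 in marrow and 9.85 and 9.71 in fetal liver. The fetal liver levels of both genotypes overlapped, while knockout marrow lay about 2 log2 units below wild-type marrow. The tissue difference was 4.26 in knockout and 2.07 in wild-type, an interaction of 2.18 ± 0.13 (limma adjusted p = 0.000296). Lgr4 passed in 21 of 22 alternative settings, the exception being the mean of its probe sets (1.02, limma adjusted p = 0.0857), whose dimmer member read below 5 on all 8 arrays and gave -0.15.

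Megakaryocyte and platelet genes supplied 3 of the 8 called genes, and DNA replication was the only other list with a called member (Rfc2). In knockout arrays 3 of 21 members were higher in fetal liver and 6 lower (median 0.09), and in wild-type arrays none was higher and 15 lower (median -0.98). With 1 array left out 2 to 5 were higher in knockout arrays and 5 or 6 lower. The interaction was positive in 20 members and negative in Fli1, with a median of 0.67, and 3 members passed its test. Over all tested autosomal genes it was positive in 5578 (44.0%), with a median of -0.037. Tubb1, the platelet beta tubulin, read 9.59 and 9.68 in knockout marrow and 9.73 and 9.69 in knockout fetal liver, against 11.29 and 10.90 in wild-type marrow and 9.52 and 9.71 in wild-type fetal liver (interaction 1.56 ± 0.19, limma adjusted p = 0.0471). The fetal liver arrays overlapped between genotypes, and knockout marrow was the group that lay apart from wild-type marrow.

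Knockout marrow also lay below wild-type marrow in the other called members of the list. Alox12, the platelet lipoxygenase, had an interaction of 1.39 ± 0.17 (limma adjusted p = 0.0472) and Ppbp, a platelet chemokine precursor, one of 1.20 ± 0.14 (limma adjusted p = 0.0353). Averaged over the 21 genes, the level was 8.30 and 8.30 in knockout marrow, 9.35 and 9.06 in wild-type marrow, 8.13 and 8.13 in knockout fetal liver and 8.28 and 8.25 in wild-type fetal liver. With any 1 array left out, 20 or 21 members had a positive interaction and the median was 0.54 to 0.87. The members were measured on the same pools and are not independent replicates. Leaving out 1 array keeps the other pool of its group, so these values cannot decide whether other pools would do the same. Among the 21 endothelial genes the interaction was positive in 18 (median 0.39), 16 to 19 with 1 array left out, and no endothelial gene passed its test. The interaction was also positive in 14 of 16 stroma and bone genes (median 0.21) and 12 of 16 erythroid regulators (median 0.10), and none of these passed. Other lists leaned the other way: it was positive in 3 of 17 inflammatory mediators (median -0.30), 2 of 14 eosinophil, basophil and mast cell genes (median -0.40) and 6 of 22 immediate early genes (median -0.13), and none of these genes passed. The direction of unadjusted values in a list is a description and was not tested.

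**Figure D4:**
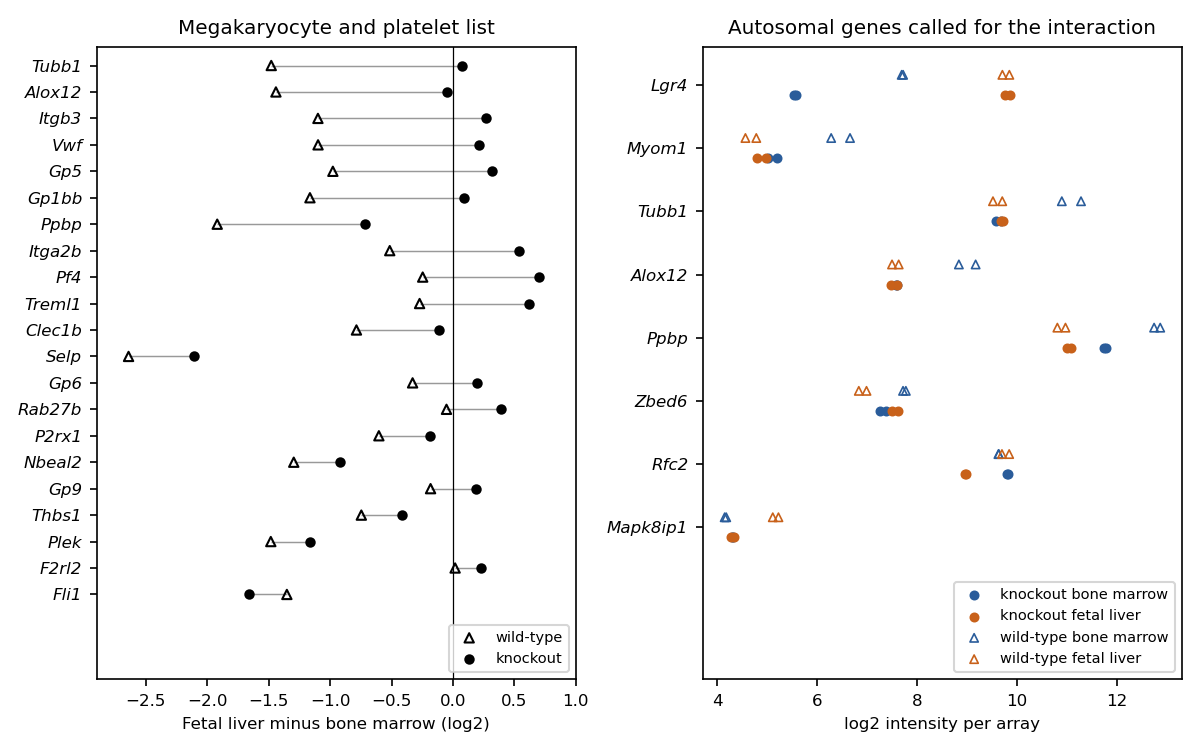
Left, log2 difference between fetal liver and bone marrow for the 21 tested megakaryocyte and platelet genes in wild-type (open triangles) and knockout (filled circles) arrays, joined by a line per gene; right, log2 intensity on each array for the 8 autosomal genes called for the interaction. Knockout points lie to the right of wild-type points for 20 of 21 genes, and at right the wild-type marrow arrays of Lgr4, Myom1, Tubb1, Alox12 and Ppbp lie above the knockout marrow arrays.

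The calls of the 3 platelet genes Ppbp, Tubb1 and Alox12 depended on the settings, with Ppbp passing in 10 of 22 alternatives, Tubb1 in 9 and Alox12 in 7. The last 4 called genes differed in pattern and passed in 6 of 22 (Myom1 and Rfc2), 5 of 22 (Zbed6) and 5 of 20 (Mapk8ip1). With the replicate block none of these 7 passed (limma adjusted p = 0.0884 to 0.0893). Myom1, a muscle M-band protein, read 5.02 and 5.19 in knockout marrow and 6.66 and 6.28 in wild-type marrow, with all fetal liver arrays at 4.98 or below (interaction 1.58 ± 0.21, limma adjusted p = 0.0493). Rfc2, a subunit of the DNA clamp loader, was lower in knockout fetal liver, at 8.98 and 8.97, than in wild-type fetal liver, at 9.70 and 9.85, while marrow was similar in both (interaction -0.98 ± 0.13, limma adjusted p = 0.0493). Its other probe sets gave -0.97 and -0.91.

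Mapk8ip1, a scaffold of the JNK pathway, had an interaction of -1.01 ± 0.12 (limma adjusted p = 0.0471), but only the wild-type fetal liver arrays read above 5 and its other probe set gave 0.05. Zbed6, a transcriptional repressor, had 1.08 ± 0.14 (limma adjusted p = 0.0493), and its other probe set gave 0.19. For Rfc2, Mapk8ip1 and Zbed6 the genotypes differed in fetal liver, where the wild-type pools also differed in sex-linked expression. The part of that difference in these values was not tested.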

How the data were processed

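Total RNA from 8 pools was hybridised to Affymetrix mouse expression arrays. The authors deposited linear intensities, 1 for each probe set on each array, made with RMA per the submitters' processing notes, its version not given in the sources used here. RMA makes array distributions alike and shrinks low-signal differences. Detection calls were not used. The log2 of each intensity was taken here. The platform annotation gives 1 gene for 34958 of 45101 probe sets, several for 932 and none for 9211; 34754 Entrez identifiers were found in the RefSeq gene table (GRCm38.p6), used for names and gene order, and 161 genes had no chromosome there.

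limma 3.58.1 in R 4.3.3 fitted 1 mean per group to the 8 arrays, with eBayes defaults (residual degrees of freedom 4, prior 4.48), two-sided, after tests on simulated data. Lists are described by counts and medians, with no list test. Named genes are Col18a1, the genes called for the interaction and the 20 largest called differences in each direction without overlap, clone-type symbols left out. Also named are up to 8 members of each list by moderated t plus called members against the list's direction. Others were picked after their values were seen. The members, lists and motifs were chosen with earlier results of these data known. Shared replicate numbers were not taken to pair arrays. Deviations of same-numbered knockout marrow and knockout fetal liver arrays correlated at -0.00102, and those of wild-type marrow and knockout fetal liver at -0.127. With 1 deviation per group these values cannot decide whether the numbers pair arrays. Alternatives covered the filter, probe set choice, normalization, variance model, array weights, the replicate block, thresholds and each array left out.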

Additional observations from a re-analysis of the deposited data

Results flagged for a closer look

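Limma's interaction test, adjusted over all tested genes, called a tissue difference that differed between knockout and wild-type in 8 autosomal genes. When adjusted over the autosomal genes alone, Lgr4 passed (limma adjusted p = 0.00114) and the others did not (0.0694). The knockout minus wild-type difference was 2.18 for Lgr4, 1.58 for Myom1, 1.56 for Tubb1, 1.39 for Alox12, 1.20 for Ppbp, 1.08 for Zbed6, -0.98 for Rfc2 and -1.01 for Mapk8ip1 on the log2 scale. Outside the autosomal genes, Y-linked expression was present in knockout fetal liver and near the array floor in wild-type fetal liver: group means were 9.40 against 3.15 for Eif2s3y, 7.53 against 3.47 for Kdm5d and 7.45 against 3.21 for Uty.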

How the results depend on the processing

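The count of 8090 genes called between knockout tissues stayed within 1.5 times under the alternatives except when limma's treat tested against a difference of 1, which called 1931 (1004 higher and 927 lower) in knockout and 2031 in wild-type. With 1 array left out it was 6814 to 8089, and with the replicate block 7883. The interaction count of 8 moved most. It was 1 with no filter, with the replicate block, when adjusted over autosomal genes, at an adjusted p under 0.01 and under treat, 2 with the most variable probe set and with array weights, 4 with the mean of all probe sets and with robust moderation, 15 with quantile normalization again and 55 with an intensity trend. With 1 array left out it was 1 to 69. The cause of these moves was not tested. Among single genes the knockout difference changed sign with the mean of all probe sets for Zbed6 (-0.60), Bcl11a (0.10), Id2 (-0.40), Zap70 (-0.012), Tyms (0.070) and Fabp4 (-0.44). With the most variable probe set it did so for Zbed6 (-1.43), Uros (0.23), Bcl11a (1.01), Id2 (-1.69), Zap70 (-0.052) and Fabp4 (-1.63). No other setting turned a named gene that was called in the main fit or in that setting. Sign changes of genes that passed in neither were not counted. Among 467 genes called with a difference of 2 or more that have a second probe set, 457 had the same sign on it. List medians near 0 changed sign in some settings for adult globins, heme synthesis, DNA replication, niche and muscle genes. Medians of the fetal program, T and NK cell, macrophage, mesothelial and glycolytic lists moved by over 1.5 times with the probe set, filter or normalization. So did those of the adipocyte, gut and pancreas, stem and progenitor, heparan sulfate proteoglycan, red cell membrane, erythroid regulator and megakaryocyte lists. The adipocyte median ran from -1.41 to -0.05 over the settings, and that of gut and pancreas from 0.25 to 2.99. Genes near the array floor in 1 tissue have differences that background limits.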
